A study of Mus musculus with 2 samples.

Results

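The 9 genes described here encode basic helix-loop-helix (bHLH) transcription factors of the cerebellar granule neuron lineage: Atoh1, Neurod1, Neurod2, Neurod6, Nhlh1 and Nhlh2, which are restricted to certain tissues, and the broadly expressed E proteins Tcf3, Tcf4 and Tcf12. They were taken by gene symbol from 23284 symbols in the deposited tables, by a rule that uses no measured value, though the set itself was drawn up with earlier results of these data known, and each had 1 locus. The data were 2 RNA sequencing libraries of total RNA from dissected mouse medulloblastoma, a tumour of the cerebellum. One came from a Brg1 knockout tumour of genotype CAG-CreER, Rosa26-SmoM2, Brg1F/F, and the other from a Brg1 wild-type tumour of genotype CAG-CreER, Rosa26-SmoM2, Brg1+/+. Both animals carried SmoM2, an activated form of the Hedgehog signal transducer Smoothened, expressed from the Rosa26 locus, and a tamoxifen-inducible Cre recombinase under the broadly active CAG promoter, which is not limited to tumour cells. Both received 10 tamoxifen injections. Brg1 is the chromatin remodelling ATPase encoded by Smarca4. The question was which genes depend on Brg1 in a tumour driven by Hedgehog signalling. There was 1 library per genotype, so no value below has a replicate error or a p-value, and "higher" and "lower" compare these 2 libraries, in which animal and genotype cannot be told apart.

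A bHLH factor dimerises through its helix-loop-helix and touches DNA with its basic region. Tissue-restricted members pair with E proteins, and the dimers bind the E-box, CANNTG. Id proteins have the helix-loop-helix but no basic region, and hold E proteins in dimers that do not bind DNA. In the cerebellum, Atoh1 marks the dividing granule neuron precursors, from which Hedgehog-type medulloblastoma can arise, and Neurod1 acts in granule neurons as they leave the cell cycle and differentiate. Nhlh1 and Nhlh2 are expressed in newborn neurons, and Neurod2 and Neurod6 in differentiating and mature neurons, Neurod6 chiefly in the forebrain.

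Levels are FPKM, fragments scaled to transcript length and to library size, so they can be set side by side between genes. A record was called expressed at 1 FPKM or more in at least 1 library, which 13279 records and all 9 members reached. Differences are log2((knockout FPKM + 1)/(wild-type FPKM + 1)), which understates differences of low genes, and in place of a test a gene was called by size, when it was 2-fold or more apart on this scale (a log2 ratio of 1 or more, or of -1 or less). By this rule 2 of the 9 members were higher in the knockout library, Neurod1 and Neurod2, and 3 were lower, Atoh1, Tcf3 and Nhlh1. That is 22.2% higher, where 16.1% of all expressed records were higher, and 33.3% lower, where 8.67% of all were lower. The median log2 ratio of the members was -0.57, against 0.09 for all expressed records. After both libraries were brought to an equal FPKM sum the median of all records was 0.24, and that of the members -0.39.

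Sequences just before the start sites of the 5 members past the size rule are shown because the family can act on its own genes through E-boxes. Each is the 250 bases upstream of the RefSeq start site on GRCm38.p6 (the same chromosomes as mm10), 5′ to 3′ on the gene's strand, with each match to CANNTG in capitals. CANNTG is its own reverse complement, so 1 pass covers both strands.
Neurod1: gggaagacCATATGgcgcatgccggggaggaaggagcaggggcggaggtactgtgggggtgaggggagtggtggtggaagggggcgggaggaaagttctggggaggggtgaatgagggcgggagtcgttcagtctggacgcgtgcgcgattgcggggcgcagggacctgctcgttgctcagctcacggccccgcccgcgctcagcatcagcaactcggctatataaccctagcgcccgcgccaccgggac
Neurod2: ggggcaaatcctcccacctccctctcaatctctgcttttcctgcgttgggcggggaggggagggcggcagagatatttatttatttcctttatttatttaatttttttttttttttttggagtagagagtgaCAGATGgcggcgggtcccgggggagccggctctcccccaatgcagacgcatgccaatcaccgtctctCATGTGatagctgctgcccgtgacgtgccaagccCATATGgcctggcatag
Atoh1: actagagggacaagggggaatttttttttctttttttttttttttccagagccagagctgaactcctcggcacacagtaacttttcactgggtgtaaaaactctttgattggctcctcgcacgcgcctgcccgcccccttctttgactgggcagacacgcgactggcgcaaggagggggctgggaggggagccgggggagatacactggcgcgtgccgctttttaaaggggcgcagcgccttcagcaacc
Tcf3: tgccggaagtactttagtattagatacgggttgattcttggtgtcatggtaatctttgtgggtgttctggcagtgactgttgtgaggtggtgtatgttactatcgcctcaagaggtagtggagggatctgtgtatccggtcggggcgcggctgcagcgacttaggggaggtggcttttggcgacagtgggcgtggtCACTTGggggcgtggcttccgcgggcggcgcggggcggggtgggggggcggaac
Nhlh1: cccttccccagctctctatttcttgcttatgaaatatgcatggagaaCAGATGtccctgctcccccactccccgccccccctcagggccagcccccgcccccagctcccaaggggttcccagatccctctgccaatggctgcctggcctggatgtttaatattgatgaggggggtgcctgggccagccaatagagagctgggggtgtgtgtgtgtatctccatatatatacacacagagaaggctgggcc
These windows are chr2:79456637-79456886 on the minus strand for Neurod1, chr11:98329646-98329895 on the minus strand for Neurod2, chr6:64728875-64729124 on the plus strand for Atoh1, chr10:80433636-80433885 on the minus strand for Tcf3 and chr1:172057597-172057846 on the minus strand for Nhlh1. Neurod2 had 3 matches. The first, CAGATG, begins 118 bases before the start site, the second, CATGTG, begins 51 bases before it, and the last, CATATG, begins 17 bases before it. Neurod1 had 1, CATATG, beginning 242 bases before it. Atoh1 had 0, Tcf3 had 1 (CACTTG, at 54 bases) and Nhlh1 had 1 (CAGATG, at 203 bases). Of 32851 RefSeq windows of this length, 66.2% held at least 1 CANNTG and 12.2% at least 3. The word CAGATG, read on both strands and itself 1 form of CANNTG, was in 14.4% of them. A match is a run of letters and not a shown binding site, and E-boxes outside these windows were not looked for. Windows were found for 8 of the 9 members, and 7 of these had a match in at least 1 window.

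Atoh1 (chromosome 6, 64729146 to 64731235, mm10, plus strand, 1 exon) is the factor that specifies granule neuron precursors. It had 10.4 FPKM in the knockout library and 67.0 FPKM in the wild-type library. The knockout level was 15.5% of the wild-type level (log2 ratio -2.58), and 0.633% of expressed records had a lower log2 ratio. The bounds deposited with each value ran from 10.5 to 12.3 FPKM in the knockout library and from 65.9 to 70.9 FPKM in the wild-type library. The knockout FPKM thus lay just below its own bounds. Atoh1 stood above 53.9% of expressed records in the knockout library and above 93.4% in the wild-type library. All 6 markers of dividing cells were also lower in the knockout library by the size rule, with a summed level of 191.3 FPKM in the knockout and 694.3 FPKM in the wild-type library and none at 0. In tumour tissue, fewer cells of a type and less RNA per cell cannot be told apart.

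Neurod1 and Neurod2 had the higher level in the library in which Atoh1 had the lower one, and Neurod6 stayed within the size rule. Neurod1 (chromosome 2, 79452641 to 79456636, minus strand, 2 exons) had 150.0 FPKM in the knockout library and 45.1 FPKM in the wild-type library, a 3.33-fold difference (log2 ratio 1.71), and 6.16% of expressed records had a higher log2 ratio. It was the most abundant of the 9 members in the knockout library, where it stood above 97.5% of expressed records. Neurod1 overlaps the gene Cerkl on the same strand in the GENCODE M21 annotation, and Cerkl had 1.81 FPKM in the knockout and 1.44 FPKM in the wild-type library. Neurod2 (chromosome 11, 98325417 to 98329645, minus strand, 2 exons) had 8.71 FPKM in the knockout library and 0.306 FPKM in the wild-type library, under the level called expressed. Its log2 ratio was 2.89, and 1.59% of expressed records had a higher one. The midpoints of its bounds were 17.5 FPKM in the knockout and 0.644 FPKM in the wild-type library. Neurod6 (chromosome 6, 55677819 to 55681263, minus strand, 2 exons) had 7.23 FPKM in the knockout library and 7.80 FPKM in the wild-type library (log2 ratio -0.10). With FPKM rescaled to the same sum its log2 ratio was 0.06, and with the bound midpoints (12.6 FPKM in the knockout and 19.5 FPKM in the wild type) it was -0.59, so it has no settled direction.

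Markers of other neurons and of glia also had more RNA in the library in which Neurod1 and Neurod2 were higher. All 8 Purkinje cell markers passed the size rule, with a summed level of 754.6 FPKM in the knockout and 11.6 FPKM in the wild-type library. All 8 astrocyte and Bergmann glia markers did so too, with sums of 2541.4 and 489.5 FPKM for knockout and wild type, and 6 of 8 from bound midpoints. Of 7 oligodendrocyte markers 6 were higher, with sums of 674.7 FPKM in the knockout and 63.5 FPKM in the wild-type library. Of 7 GABAergic interneuron markers the 6 that were expressed were higher, with sums of 129.0 FPKM in the knockout and 7.86 FPKM in the wild-type library. None of the markers in these 4 lists was at 0 in either library (0 of 30), and their part in the levels of the bHLH genes was not tested. Among markers of forebrain glutamatergic neurons, a main site of Neurod6, Emx1 and Emx2 were at 0 in both libraries.

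**Figure D1:**
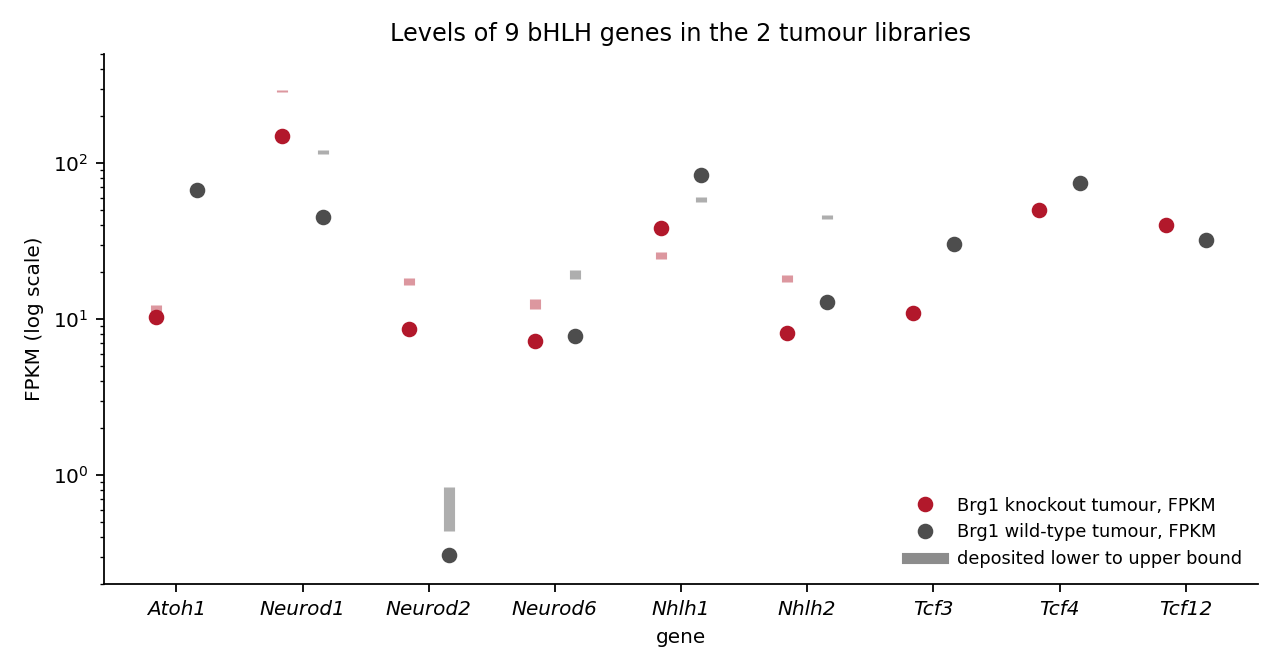
Levels of the 9 bHLH genes in FPKM on a log axis, with the Brg1 knockout tumour (red points) left of the Brg1 wild-type tumour (grey points), 1 library each. Thick bars run from the deposited lower to the deposited upper bound, and for the NeuroD and Nhlh genes the points lie off their own bars. The points of Atoh1 in the knockout and of Tcf4 in the wild type lie just below their bars. Atoh1 stands at 10.4 FPKM in the knockout and 67.0 FPKM in the wild type, and Neurod1 at 150.0 and 45.1 FPKM in the same order.

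Both Nhlh genes had less FPKM in the knockout library, Nhlh1 just past the size rule and Nhlh2 inside it. Nhlh1 (chromosome 1, 172052292 to 172057596, minus strand, 2 exons) had 38.2 FPKM in the knockout library and 83.7 FPKM in the wild-type library, where it was the most abundant of the 9 members by FPKM but not by bound midpoint (58.4 FPKM, against 118.7 FPKM for Neurod1 in the same library). Its log2 ratio of -1.11 became -0.93 with FPKM rescaled to the same sum, inside the size rule. Nhlh2 (chromosome 3, 102010145 to 102015492, plus strand, 2 exons) had 8.13 FPKM in the knockout library and 13.0 FPKM in the wild-type library (log2 ratio -0.61). Its bound midpoints were 18.2 FPKM in the knockout and 45.2 FPKM in the wild-type library, which gave -1.27, past the size rule.

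The 3 E protein genes did not share a direction. Tcf3 (chromosome 10, 80409165 to 80433653, minus strand, 19 exons), which encodes E12 and E47, had 11.0 FPKM in the knockout library and 30.3 FPKM in the wild-type library (log2 ratio -1.38). Tcf4 (chromosome 18, 69344492 to 69687967, plus strand, 20 exons), which encodes E2-2, had 50.2 FPKM in the knockout library and 75.0 FPKM in the wild-type library (log2 ratio -0.57). Tcf12 (chromosome 9, 71844252 to 72111819, minus strand, 21 exons), which encodes HEB, had 40.1 FPKM in the knockout library and 32.1 FPKM in the wild-type library (log2 ratio 0.31). Tcf4 and Tcf12 stayed within the size rule, and the signs of all 3 held in each of the 7 alternatives run for single genes. Among those alternatives, the pseudocounts and summed loci could not have changed a sign. Tcf3 made up 10.9% of the summed E protein level in the knockout and 22.0% in the wild-type library, and Tcf12 made up 39.6% and 23.4% in the same order. Tcf4 was the most abundant E protein gene in both, with 49.5% in the knockout and 54.6% in the wild-type library. The summed E protein level was 101.3 FPKM in the knockout and 137.3 FPKM in the wild-type library.

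**Figure D2:**
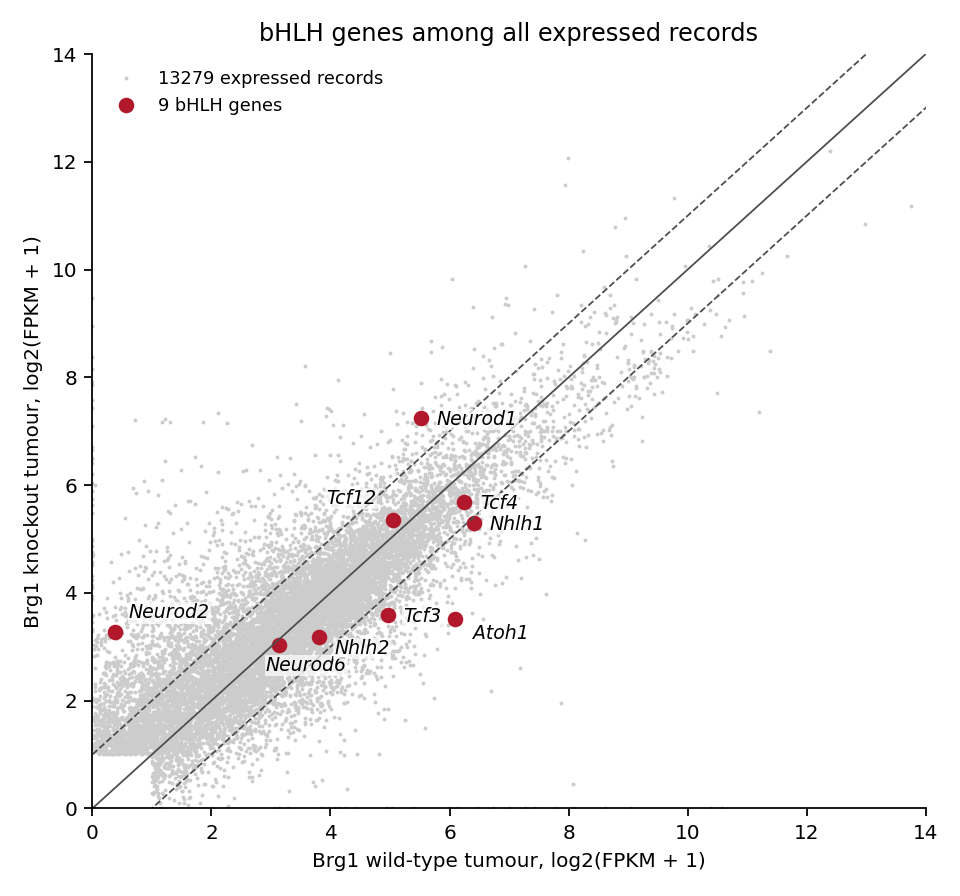
Each grey point is 1 of 13279 expressed records, placed by log2(FPKM + 1) in the Brg1 knockout tumour (vertical axis) and in the Brg1 wild-type tumour (horizontal axis), with the 9 bHLH genes in red. The solid line marks equal levels and the dashed lines the 2-fold size rule. Neurod1 and Neurod2 lie above the upper dashed line, Atoh1, Tcf3 and Nhlh1 below the lower one, and the other 4 between them.

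The summed level of the 6 tissue-restricted members was close in both libraries while its makeup differed. It was 222.6 FPKM in the knockout and 216.9 FPKM in the wild-type library. Neurod1 contributed 67.4% of it in the knockout library and 20.8% in the wild-type library. Atoh1 contributed 4.65% in the knockout and 30.9% in the wild-type library, and Nhlh1 17.2% in the knockout and 38.6% in the wild-type library. The level of Neurod1 was 14.5 times that of Atoh1 in the knockout library and 0.673 times in the wild-type library. From bound midpoints these ratios were 25.5 in the knockout and 1.73 in the wild type, so whether Neurod1 lay above or below Atoh1 in the wild-type library depends on the deposited column used. The summed level was then 377.0 FPKM in the knockout and 310.8 FPKM in the wild-type library. Neurod1 contributed 77.4% of that in the knockout and 38.2% in the wild-type library, where it was then the largest single part, ahead of Atoh1 at 22.0%. Nhlh1 contributed 6.81% in the knockout and 18.8% in the wild-type library.

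By FPKM the order of levels in the knockout library was Neurod1, Tcf4, Tcf12, Nhlh1, Tcf3, Atoh1, Neurod2, Nhlh2 and Neurod6. In the wild-type library it was Nhlh1, Tcf4, Atoh1, Neurod1, Tcf12, Tcf3, Nhlh2, Neurod6 and Neurod2. These orders hold for FPKM, and 1 library gives no spread over samples by which neighbours could be told apart. By bound midpoints the order in the knockout library was Neurod1, Tcf4, Tcf12, Nhlh1, Nhlh2, Neurod2, Neurod6, Atoh1 and Tcf3. In the wild-type library it was then Neurod1, Tcf4, Atoh1, Nhlh1, Nhlh2, Tcf12, Tcf3, Neurod6 and Neurod2.

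The deposited FPKM lay outside its own bounds for 6 of the 9 members in each library, and for 52.0% of records of at least 1 FPKM in the knockout and 52.5% in the wild-type library. Neurod1 had bounds of 287.3 to 296.1 FPKM beside its 150.0 FPKM in the knockout library, and of 115.1 to 122.2 FPKM beside its 45.1 FPKM in the wild-type library. In 4 of the 9 members, Neurod1, Neurod2, Neurod6 and Nhlh2, the FPKM differed from the midpoint of its bounds by more than 1.5-fold in at least 1 library, and in each it was below the midpoint. A gap of that size occurred in 16.8% of records of at least 1 FPKM in the knockout and in 20.3% in the wild-type library. From the midpoints the log2 ratio of Neurod1 was 1.29, that of Neurod2 3.49, that of Atoh1 -2.48, that of Nhlh1 -1.16 and that of Tcf3 -1.38, so these 5 stayed past the size rule with Nhlh2 added. That made 2 members higher and 4 lower, where 15.6% of all expressed records were higher and 8.74% lower from midpoints. The bounds of the libraries overlapped for 0 of the 9 members, but they also did not overlap for 77.7% of all expressed records, and they do not cover the difference between animals.

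**Figure D3:**
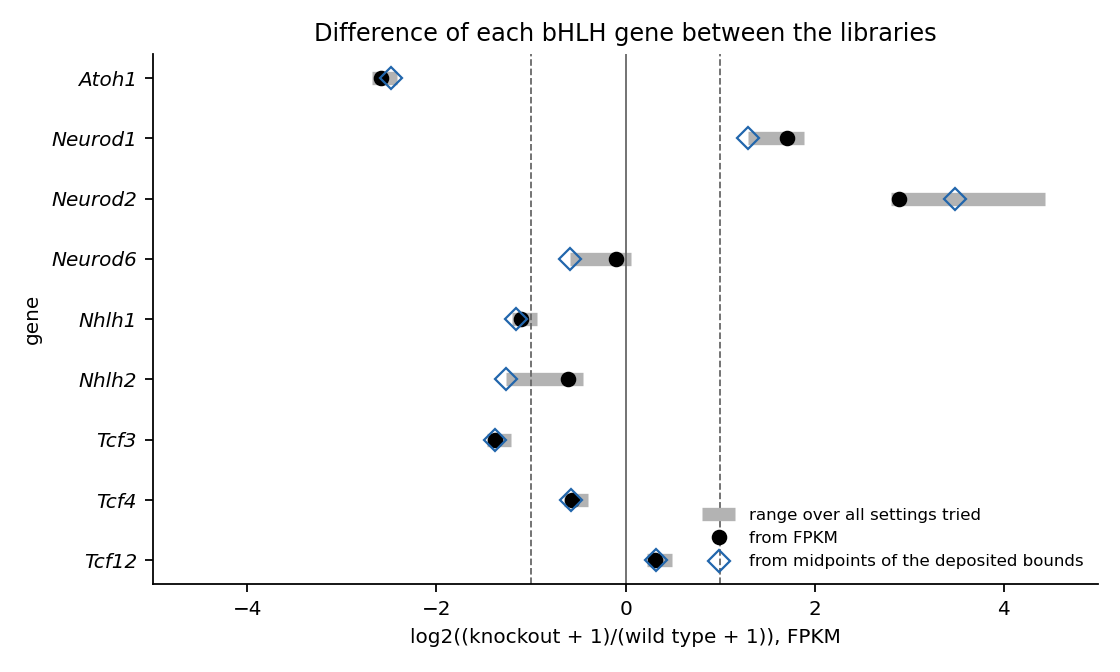
The log2 ratio of knockout over wild type with 1 FPKM added, for each of the 9 bHLH genes. Black points use FPKM, open diamonds the bound midpoints, and grey bars the range over FPKM and the 7 other settings. Dashed lines mark the 2-fold size rule, which Nhlh2 passes only from the bound midpoints (-1.27, against -0.61 from FPKM).

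All 4 Id genes, whose products inhibit the E proteins, passed the size rule with more RNA in the knockout library. Id2 had 235.4 FPKM in the knockout and 61.2 FPKM in the wild-type library, Id3 had 100.9 and 37.3 FPKM in the same order, and Id4 had 35.8 and 3.13 FPKM. The Id genes together had 402.7 FPKM in the knockout and 114.3 FPKM in the wild-type library. Their sum was 3.97 times the summed E protein level in the knockout library and 0.832 times in the wild-type library, and from bound midpoints 3.81 and 0.782 times in the same order. These are RNA levels, and the proteins were not measured. Astrocyte and Bergmann glia markers, whose sums are given above, were higher in the same library, and their part in the Id levels was not tested.

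**Figure D4:**
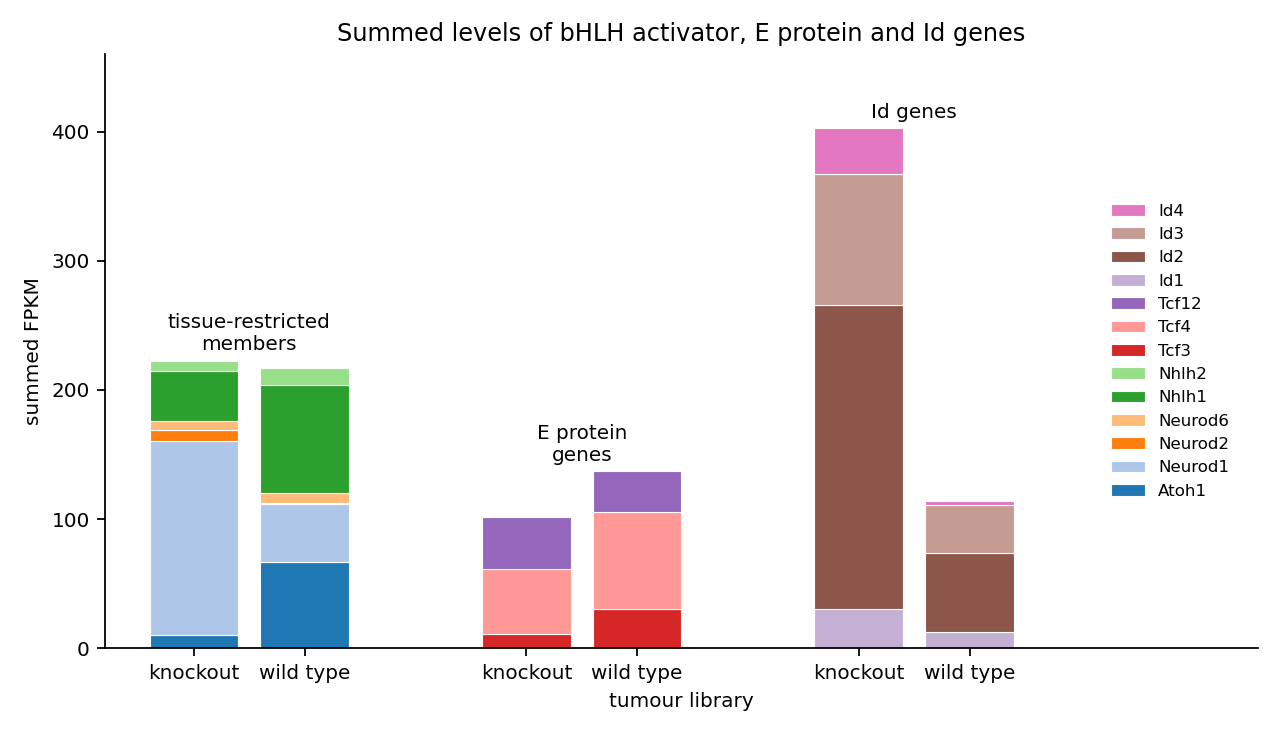
Stacked bars of summed FPKM for the 6 tissue-restricted bHLH members, the 3 E protein genes and the 4 Id genes, with the Brg1 knockout tumour left of the Brg1 wild-type tumour in each pair, 1 library each. Tissue-restricted members sum to 222.6 FPKM in the knockout and 216.9 FPKM in the wild type, with Neurod1 as the main part in the knockout, while Id genes sum to 402.7 and 114.3 FPKM.

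Other bHLH genes are given from lists that hold no member. Of 28 other class II genes, 7 were expressed, of which 2 were higher and 2 lower (median log2 ratio -0.60). The lower genes were Olig2 (9.23 FPKM in the knockout and 42.0 FPKM in the wild-type library) and Olig1 (35.6 and 89.0 FPKM in the same order), which act in oligodendrocyte precursors; Olig1 lay inside the size rule from bound midpoints (log2 ratio -0.92). From midpoints Neurod4 (-1.16) and Olig3 (-1.01) passed it, which made 3 genes of the list lower. The higher genes were Atoh8, with 2.20 FPKM in the knockout and 0.141 FPKM in the wild-type library, and Bhlhe22, with 13.5 and 5.55 FPKM in the same order, named after its value was seen. Ptf1a, the GABAergic lineage factor of the cerebellum, had 0.015 FPKM in the knockout library and was at 0 in the wild-type library. It was named after its value was seen, and was not expressed by the rule used here.

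In a list of Hes and Hey genes, bHLH repressors of which several are Notch targets, together with the related repressors Bhlhe40 and Bhlhe41, 9 were expressed, 3 lower and 2 higher (median -0.64). Hes5 had 0.984 FPKM in the knockout and 17.6 FPKM in the wild-type library, and Hey1 had 17.97 and 71.8 FPKM in the same order. Hes3 went the other way, with 8.35 FPKM in the knockout and 0.634 FPKM in the wild-type library. The other higher gene was Bhlhe40, with 17.5 FPKM in the knockout and 5.37 FPKM in the wild-type library, and the other lower one Hes1, with 5.12 and 16.2 FPKM in the same order. Both were named after their values were seen. Of 10 partner and corepressor genes, 2 were higher and 2 lower by size, a split with no single direction (median -0.35). From bound midpoints 3 were lower, with Zeb1 at -1.51 (-0.99 from FPKM), and the median was -0.61. The lower genes were Cbfa2t3 and Cbfa2t2, corepressors that bind E proteins, and the higher ones Kat2b, an acetyltransferase, and Runx1t1, another corepressor of that family, which lay at the limit with a log2 ratio of 1.01 and was named after its value was seen. Cbfa2t3 had 5.18 FPKM in the knockout and 31.0 FPKM in the wild-type library, Cbfa2t2 had 12.7 and 27.7 FPKM in the same order, and Kat2b had 20.7 and 8.46 FPKM.

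Expressed genes reported as regulated by Atoh1 in mice were within the size rule or lower. Of 8 listed genes, which leave out Nhlh1 and Nhlh2, 6 were expressed, and 2 of these were lower and 0 higher (median -0.81). Of all expressed records 8.67% were lower and 16.1% higher, with a median of 0.09. Dll3, a Notch ligand gene, had 1.002 FPKM in the knockout and 27.0 FPKM in the wild-type library, and the Hedgehog effector gene Gli2 had 1.62 and 16.9 FPKM in the same order. The homeobox gene Barhl1, named after its value was seen, had 58.1 FPKM in the knockout and 115.2 FPKM in the wild-type library (log2 ratio -0.98), just inside. Of 14 granule precursor genes, 9 were lower and 0 higher (median -1.46), with Cxcr4 at 14.7 FPKM in the knockout and 195.7 FPKM in the wild-type library. Gli2 and Barhl1 are counted in this list too. Of 18 granule neuron differentiation genes, 15 were higher and 0 lower, and 14 higher from bound midpoints. By FPKM the 3 inside the size rule were Tubb3 (log2 ratio 0.30), Rbfox3 (0.27) and Reln (-0.43), named after their values were seen. One of the 15, Dcx, stood at 0 with status FAIL in the wild type, and without it 14 of 17 were higher with a median of 2.68. Gabra6, which encodes a GABA-A receptor subunit found on mature granule neurons, had 143.1 FPKM in the knockout and 1.24 FPKM in the wild-type library. Markers of Purkinje cells and glia, with the sums given above, differed between the same libraries, and their part in these lists was not tested.

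**Figure D5:**
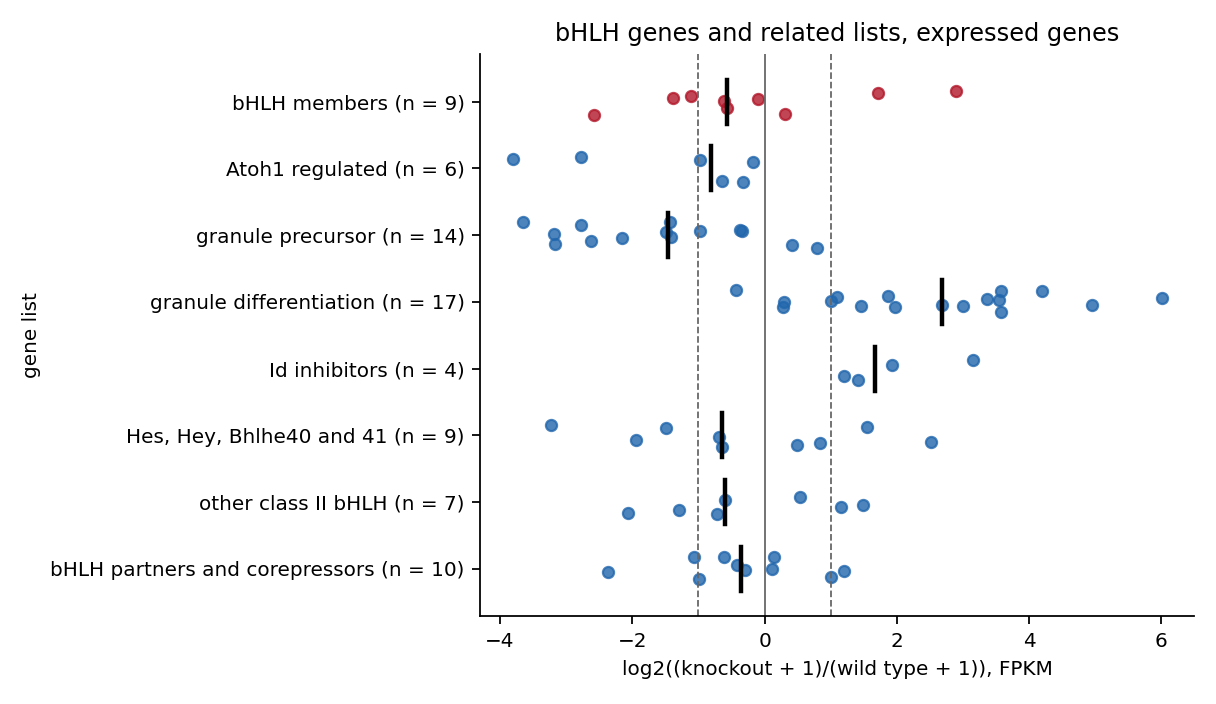
The log2 ratio of knockout over wild type, with 1 FPKM added, for each expressed gene of status OK in the member list (red) and in 7 related lists (blue), where vertical black bars are list medians and dashed lines the 2-fold size rule. Id genes and granule differentiation genes lie mostly to the right, granule precursor genes mostly to the left, and the 9 bHLH members on both sides with a median of -0.57.

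The genes nearest to Atoh1 in both libraries at once, by distance in log2(FPKM + 1) over 9208 candidates that reached 5 FPKM in either library, were Syt13, Mdga1 and Mcm6. Small RNA genes and unnamed gene models were left out of the candidates, and each symbol kept 1 locus. Syt13 had 9.79 FPKM in the knockout and 66.2 FPKM in the wild-type library, and Mdga1 had 11.0 and 64.2 FPKM in the same order. Mcm6, a subunit of the replicative helicase, had 9.56 FPKM in the knockout and 62.0 FPKM in the wild-type library. It is also among the 6 markers of dividing cells counted above. Those nearest to Neurod1 were Ndrg3, Dner and Nptn. Dner, a Notch-related gene of Purkinje and other neurons, had 153.2 FPKM in the knockout and 47.5 FPKM in the wild-type library. The likeness rests on 2 libraries and on the FPKM column. From bound midpoints the log2 ratio of Neurod1 was 1.29, against 1.66 for Ndrg3, 1.68 for Dner and 1.66 for Nptn. That of Atoh1 was -2.48, against -2.50 for Syt13, -2.40 for Mdga1 and -2.81 for Mcm6.

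Smarca4, the targeted gene, had 3.76 FPKM in the knockout and 14.0 FPKM in the wild-type library (log2 ratio -1.66), a value taken over the whole gene, from which the extent of recombination cannot be read. The knockout library held 12994 records of 1 FPKM or more and the wild-type library 12006. The files give no read counts, so depth is unknown.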

How the data were processed

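RNA was measured in 2 libraries, 1 per genotype, with groups taken from the genotype labels. Per the file headers, each record holds a deposited FPKM, its bounds (lower and upper) and a status. Cuffdiff 2.1.1 and the build mm10 are named in the submitters' processing notes, which do not say what each was used for. How reads were aligned, which annotation and filters were used and how the bounds were made is not stated in these sources. Total RNA was extracted with TRIzol, per the labels' protocols.

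Both tables were joined by symbol and locus (23746 records), and starts were converted to count from 1. Log2 ratios used a pseudocount of 1 FPKM. No test was possible with 1 library per genotype. Alternatives were pseudocounts of 0.1 and 0.5 FPKM, same sum, upper quartile, median centring, bound midpoints, summed loci, a minimum of 5 FPKM or none, status OK only, and 1.5-fold and 4-fold rules. Gene models, strands, exon counts (longest coding transcript) and overlaps came from GENCODE M21. Members, lists and rules were chosen with earlier results of these data known. Named genes were all members, up to 3 genes of each related list with the largest absolute log2 ratio past the size rule, the 3 nearest neighbours of Atoh1 and of Neurod1, and Smarca4. Further list members are given where said, and some list members are not reported here. Endothelial, microglia, fibroblast and unipolar brush cell markers were also counted: 1 of 4, 5 of 6, 2 of 4 and 3 of 3 expressed genes were higher in the knockout library. Scripts ran under Python 3.11.15 with pandas 2.3.3, numpy 2.4.6 and, for the plots, matplotlib 3.10.9.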

Additional observations from a re-analysis of the deposited data

How the results depend on the processing

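No paired analysis was possible because there was 1 library per genotype, and for the same reason no library could be left out. Of 154 comparisons with an alternative, 135 were rated the same and 0 called values changed sign. A count was the same within 1.5 times, as when lower members went from 3 to 2. A log2 ratio was the same if still past the size rule, or still inside it within 0.1. Of the rest, 17 moved by more, 1 log2 ratio left the rule and 1 passed it. Some comparisons could not differ. Each member had 1 locus, status OK and 5 FPKM or more in at least 1 library. Summed loci and these filters thus could not change the members. Dropping the minimum could not add called records, and a pseudocount cannot change a sign. With FPKM rescaled to the same sum, the log2 ratio of Nhlh1 was -0.93 and left the size rule, Tcf4 had -0.39, Tcf12 0.49, Neurod6 0.060 and Nhlh2 -0.45, the median of the members was -0.39 and that of all expressed records 0.24, and the log2 ratio of the summed level was -0.26 for E protein genes and 0.22 for tissue-restricted genes. From bound midpoints Nhlh2 had -1.27 and passed the rule, Neurod6 had -0.59, the tissue-restricted sum had 0.28 and its ratio to the E protein sum 0.72 (0.04 and 0.48 from FPKM). A 4-fold rule left 1 member higher, Neurod2, and 1 lower, Atoh1, among 554 higher and 199 lower records, and a 1.5-fold rule called 3727 records higher and 2386 lower. Over all settings for single genes the log2 ratio of Atoh1 ranged from -2.68 to -2.41, that of Neurod1 from 1.29 to 1.89, that of Neurod2 from 2.81 to 4.44 and that of Tcf3 from -1.46 to -1.21. The cause of the gap between FPKM and its bounds was not tested. Depth is unknown, which limits how low values, such as that of Neurod2 in the wild-type library, can be read.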
